A study of Mus musculus with 35 samples.

Results

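Of 179334 genomic regions acetylated at histone H3 lysine 27 (H3K27ac) in at least 1 of 12 libraries of a mouse reprogramming series, 4959 (2.77%) had peaks at day 9 and none in the starting fibroblasts, at day 3 or in embryonic stem cells (ESC). They were defined by their peaks: all H3K27ac peaks of chromosomes 1 to 19 and X were merged where they overlapped by 1 bp, and a region was kept when both day 9 libraries had a peak in it and none of the 7 libraries of fibroblasts, day 3 and ESC did. Day 6 was not part of the rule. These day 9-only regions made up 15.7% of the 31625 regions with a peak in both day 9 libraries. Another pair of classes serves for comparison. The ESC-shared regions (3296) also had a peak in both day 9 libraries and none in fibroblasts or at day 3, but had a peak in both ESC libraries, and all merged regions give the background.

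The cells were mouse embryonic fibroblasts (MEF) of C57BL/6 x 129 strain carrying a doxycycline-inducible Pou5f1, Klf4, Sox2 and Myc cassette (OKSM) at Col1a1 and the M2rtTA activator at Rosa26. The fibroblast libraries came from uninduced cells in MEF medium, unsorted. Days 3, 6 and 9 were cells of the same genotype kept in ESC medium to which doxycycline (1 µg/ml) and ascorbic acid (50 µg/ml) were added, unsorted at day 3 and sorted for the surface marker SSEA1 at days 6 and 9, so that day and sort cannot be told apart between day 3 and the later days. ESC were the V6.5 line of the same strain label, without the cassette, grown on feeder cells in serum and LIF, and for 2 KLF4 libraries also with a MEK inhibitor at 1 µM and a GSK3 inhibitor at 3 µM, called 2i. The day 9 medium still held doxycycline, and the level of the induced factors was not analysed here. Days 3 and 6 had 3 H3K27ac libraries each and MEF, day 9 and ESC 2 each, and every KLF4 stage (day 3, day 6, day 9, serum ESC, 2i ESC) had 2. Nothing in the labels says that libraries of 1 group came from separate cultures, so the spread between them may be technical.

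H3K27ac marks the nucleosomes beside active enhancers and promoters and is laid down by the coactivators p300 and CBP, which transcription factors bring to DNA. KLF4 is a zinc finger factor that binds G-rich sites of the CACCC type. It belongs to the pluripotency network of ESC and is also a regulator of epithelial differentiation, above all in the epidermis. Cells on the way from fibroblast to pluripotency pass through a mesenchymal-to-epithelial transition, in which junction proteins and epithelial transcription factors replace fibroblast ones.

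Peak lists differed in length between stages, from 17493 to 22462 peaks at day 6 and 43974 to 45506 at day 9 to between 81231 and 88347 in MEF and ESC. The files hold no read counts, so depth is unknown, and the lack of a peak does not show that signal was lacking. The MEF and ESC H3K27ac libraries belong to batch DG-3458 and the day 9 ones to batch EA-3702, so batch and stage cannot be told apart there; both batches hold day 3 and day 6. A peak in a mixed population also cannot tell few strongly acetylated cells from many weakly acetylated ones.

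Promoters of epithelial and trophoblast genes that day 9-only regions touched are printed to show where letters of the KLF type lie beside the peaks. The sequences are the 250 bases before the start of the gene from RefSeq (GRCm38.p6, the build called mm10 in the notes of the submitters), written 5′ to 3′ on the strand of the gene. Capitals mark the KLF-type motifs GGGNGTG and CACCC and the AP-1 motif TGANTCA on either strand, and matches may overlap. Elf5 and Lamb3 were chosen because KLF4 peaks reached into the printed window, Grhl3 because its KLF4 peaks were mostly those of ESC, and Rab25 and Sprr1a because KLF4 lay in the acetylated region but beside the printed window. The promoter of Patj, also touched, holds 0 GGGNGTG and 1 CACCC, had no KLF4 peak in any of the 10 libraries and is not printed. Of these promoters only that of Sprr1a holds the AP-1 motif.
Elf5 (chr2:103423818-103424067, plus strand): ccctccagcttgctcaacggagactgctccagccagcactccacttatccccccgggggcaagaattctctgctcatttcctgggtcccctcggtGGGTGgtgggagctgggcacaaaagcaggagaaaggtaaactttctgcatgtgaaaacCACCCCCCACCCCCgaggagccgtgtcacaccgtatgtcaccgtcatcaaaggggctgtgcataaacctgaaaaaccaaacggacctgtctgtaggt
Lamb3 (chr1:193301744-193301993, plus strand): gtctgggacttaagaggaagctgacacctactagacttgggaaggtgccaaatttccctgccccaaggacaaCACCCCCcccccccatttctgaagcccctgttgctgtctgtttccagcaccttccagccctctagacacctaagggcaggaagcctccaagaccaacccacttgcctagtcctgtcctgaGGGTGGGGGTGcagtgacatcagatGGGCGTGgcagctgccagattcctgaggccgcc
Grhl3 (chr4:135573633-135573882, minus strand): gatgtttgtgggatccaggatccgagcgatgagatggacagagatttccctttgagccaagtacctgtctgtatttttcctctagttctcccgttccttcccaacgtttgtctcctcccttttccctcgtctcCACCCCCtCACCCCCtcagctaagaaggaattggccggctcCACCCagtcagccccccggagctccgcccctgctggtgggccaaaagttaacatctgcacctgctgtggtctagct
Rab25 (chr3:88548280-88548529, minus strand): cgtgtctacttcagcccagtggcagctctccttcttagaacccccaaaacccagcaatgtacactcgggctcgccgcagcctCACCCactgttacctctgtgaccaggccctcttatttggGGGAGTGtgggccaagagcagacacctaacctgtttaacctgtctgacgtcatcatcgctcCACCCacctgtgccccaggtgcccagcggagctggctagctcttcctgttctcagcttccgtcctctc
Sprr1a (chr3:92485882-92486131, minus strand): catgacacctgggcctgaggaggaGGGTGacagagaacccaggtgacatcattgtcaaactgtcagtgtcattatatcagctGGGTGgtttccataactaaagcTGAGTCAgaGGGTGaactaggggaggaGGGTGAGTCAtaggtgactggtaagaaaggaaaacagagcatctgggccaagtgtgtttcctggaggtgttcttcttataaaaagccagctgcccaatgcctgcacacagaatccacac

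Elf5, a factor of trophoblast and of glandular epithelium, had its start covered by a day 9-only region (chr2:103423832-103424741) with a deposited fold enrichment of 6.24 and 4.74 in the day 9 H3K27ac libraries. KLF4 had a peak there in both day 9 libraries (fold 3.49 and 3.32) and in none of the other 8 KLF4 libraries. Its window holds GGGNGTG at 2 positions and CACCC at 3. Lamb3, the laminin beta chain of epidermal basement membrane, had a region near the lower limit (fold 2.55 and 2.44), with KLF4 peaks in both day 6 libraries, 1 day 9 library, 1 serum ESC library and both 2i libraries. The highest of these KLF4 folds, 7.74, was in 2i, where the acetylation rule had no library. Grhl3, a grainyhead factor of epithelia, had 2 day 9-only regions: at the start (chr4:135572896-135573890) KLF4 had a peak in both serum ESC and both 2i libraries, in 1 each at day 6 and day 9 and in none at day 3, whereas the other region (chr4:135563158-135565208) had KLF4 in both libraries at each of days 3, 6 and 9 and in 1 in serum ESC. Rab25, a GTPase of apical recycling in epithelia, had the strongest acetylation of the 5 at its start (fold 11.1 and 6.25), with KLF4 in both day 9 libraries (fold 8.13 and 6.16), in 1 day 6 library (3.81) and in 1 2i library (4.23). At Sprr1a, a cornified envelope protein, KLF4 folds were 6.48 and 6.74 at day 9 and 2.40 in 1 day 3 library, and the window holds 2 AP-1 motifs, of which 1 overlaps a KLF-type match.

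Promoters were nevertheless a small share. Of the day 9-only regions 170 (3.43%) overlapped a RefSeq promoter window of 300 bases (250 before to 50 after the start), against 7.59% of all merged regions, 9.74% of ESC-shared regions and 31.2% of all day 9 regions. They touched 191 windows of 172 genes, 106 protein-coding and 66 of long non-coding RNA. The median GC content of these windows was 53.0% with 6 CpG, the same GC as over all 32619 windows (53.0%, 7 CpG) and lower than in windows of ESC-shared regions (60.0%, 15 CpG). GGGNGTG was found in 42.9% of the 191 windows, in 35.2% of 383 windows of ESC-shared regions and in 29.0% of all windows. CACCC was found in 69.1%, 70.2% and 57.7%, and TGANTCA in 7.33%, 5.48% and 7.85%. ACAAAG, a SOX-type motif, was in 28.3%, 18.5% and 18.7%. The ETS motif CCGGAAGT was in 0.524%, 1.04% and 3.91%, and the octamer ATTTGCAT in 2.62%, 2.35% and 1.75%. The GATA motif AGATAA was in 8.90%, 5.22% and 11.2%, and the TEAD motif GGAATG in 15.2%, 15.4% and 14.6%. In the 73 windows of day 9-only regions with KLF4 in both day 9 libraries, GGGNGTG was in 46.6% and ACAAAG in 19.2%. The grainyhead motif AACCGGTT was in 0 of the 191 windows and in 0.147% of all windows.

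Most day 9-only regions lay away from gene ends. Within 2.5 kb of an end of a protein-coding gene were 565 (11.4%), against 16.1% of all merged regions, 20.0% of ESC-shared regions and 39.7% of all day 9 regions. The share was 21.8% when the rule was applied to equal numbers of peaks per list. The gene table gives neither strand nor exons, so starts, ends, exons and introns were not separated. Inside or touching a protein-coding gene were 2936 (59.2%), close to the 56.2% of all merged regions. Hairpins of 15 of 1005 miRNA genes (1.49%) lay within 2.5 kb, among them Mir193b (chr16:13449523-13449601). Every chromosome was represented, with 2.28% of the regions on X and 7.44% on chromosome 2, beside 2.31% and 7.65% of all day 9 regions.

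The regions were narrower and weaker than other day 9 regions. Their median width was 772 bp (10th to 90th percentile 470 to 1774 bp), against 1650 bp for ESC-shared regions, 1851 bp for all day 9 regions and 542 bp for all merged regions, and together they covered 4.84 Mb. Widths are those of intervals merged over all libraries. By the rule a day 9-only region holds only day 9 and day 6 peaks, whereas peaks of ESC also widen ESC-shared regions. Peaks of any stage can widen the regions of all day 9, so the rule bears on the difference in width. The deposited fold enrichment at day 9, which chose the regions through the peak call, had a median of 3.33 in the first library and 3.47 in the second. In ESC-shared regions the medians were 3.88 and 4.17 and in all day 9 regions 5.07 and 5.55. The day 9 peak reached a deposited q-value of at most 0.01 in 81.3% and 84.5% of them. At the limit of the rule, 453 of the 4959 had a lower day 9 peak with −log10 p under 3, while 1928 regions missed the class through a peak in 1 of the 7 other libraries (median −log10 p at that peak 3.70) and 6726 through the lack of a peak in 1 day 9 library (median 3.84 at the other).

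Another merged region of any stage lay within 1 kb of 49.9% of the day 9-only regions, against 65.4% of all merged regions, 55.1% of all day 9 regions and 66.6% of ESC-shared regions. A further day 9-only region lay within 1 kb of 15.4%. A day 9 region of another class was within 12.5 kb of 44.2%, and of 46.1% of ESC-shared regions. Without those that had a MEF, day 3 or ESC peak within 1 kb, 3891 (78.5%) were left. Joined across gaps of at most 12.5 kb, the regions formed 4217 groups, of which 3594 were single regions, 535 were pairs and 88 held 3 or more.

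In each of the 3 day 6 libraries the share of day 9-only regions with a peak was below that of all merged regions and of ESC-shared regions. It was 2.90% and 1.65% in the DG-3458 libraries of day 6 and 7.97% in the EA-3702 library, a mean of 4.17% ± 3.34 (SD, n = 3). In the same order all merged regions had 7.79%, 6.59% and 9.45% (7.94% ± 1.43, n = 3) and ESC-shared regions 6.13%, 4.19% and 15.1% (8.49% ± 5.84, n = 3). The EA-3702 library, of the same batch as day 9, was the highest in each class. At least 1 day 6 library had a peak in 495 regions (9.98%), close to the background of 11.0%, and all 3 did in 27 (0.544%), against 5.61% of all merged regions. Of all day 9 regions, 54.7% had a peak in at least 1 day 6 library. Day 6 lists were the shortest of the series, and their part in these shares was not tested. When each list was cut to its 17493 top peaks and the rule applied again, 2633 regions qualified, a mean of 23.7% of them had a day 6 peak per library, and only 632 of the original 4959 (12.7%) were among or overlapped them.

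Regions with the strongest day 9 acetylation were more often seen at day 6. Split into 10 equal groups by day 9 rank, 39.7% of the top group had a day 6 peak and 3.64% of the lowest. The median width was 1959 bp in the top group and 559 bp in the lowest, and the part of width was not tested. The strongest of all lay in Pxylp1, a phosphatase of proteoglycan synthesis (chr9:96884304-96886591): its day 9 folds were 23.9 and 21.7, and its day 6 folds 3.84, 3.10 and 3.59. All 3 day 6 libraries also had a peak 32336 bp from Bdh1, a ketone body dehydrogenase (fold 14.4 and 17.8 at day 9, 3.00, 2.93 and 4.16 at day 6), and 56197 bp from Nectin1, a cell adhesion protein of adherens junctions (15.5 and 17.6 at day 9, 3.30, 4.58 and 4.72 at day 6). Galnt7, an enzyme of O-linked glycosylation, and Abtb2 complete the 5 strongest regions with a peak in all 3, with day 6 folds between 3.49 and 5.23. These folds come from lists made library by library and are set side by side without a test.

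KLF4 binding was not used by the rule, but acetylation was. The rule asks for H3K27ac at day 9 and for none at day 3 or in ESC. KLF4 peaks were more frequent at strongly acetylated regions, as given below. The choice of regions and the stage therefore cannot be told apart in the day 9 difference, and its p-values do not separate them. In the 10 KLF4 libraries the share of day 9-only regions with a KLF4 peak was 25.1% and 18.0% at day 3, 20.0% and 35.1% at day 6, 42.5% and 44.2% at day 9, 6.41% and 12.8% in serum ESC, and 4.36% and 5.67% in 2i ESC. Both day 9 libraries lay above each of the other 8. All merged regions stayed between 8.04% and 14.2% in the 10 libraries, so the regions were above that range at days 3 to 9 and below it in 2i. All day 9 regions had more KLF4 than the day 9-only ones in each library: 55.8% and 42.0% at day 3, 49.2% and 47.1% at day 6, 49.8% and 52.6% at day 9, and 32.7% to 46.6% in the 4 ESC libraries. The mean was 43.3% ± 1.20 at day 9 (SD, n = 2) and 15.9% ± 10.8 over the other libraries (n = 8), a difference of 27.4 percentage points. No other way of labelling 2 of 10 libraries gave as large a difference (exact two-sided permutation of 45 labelings, p = 0.0222, the smallest possible with these libraries), but adjusted over 3 tests the p was 0.0667 and missed the threshold of 0.05. When either day 9 H3K27ac library was left out of the rule, so that a peak in the other sufficed, the difference was 17.0 or 17.1 points. With labels permuted within batches the difference was 26.8 points and the exact permutation p was 0.100, the smallest that those 10 labelings allow.

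**Figure D1:**
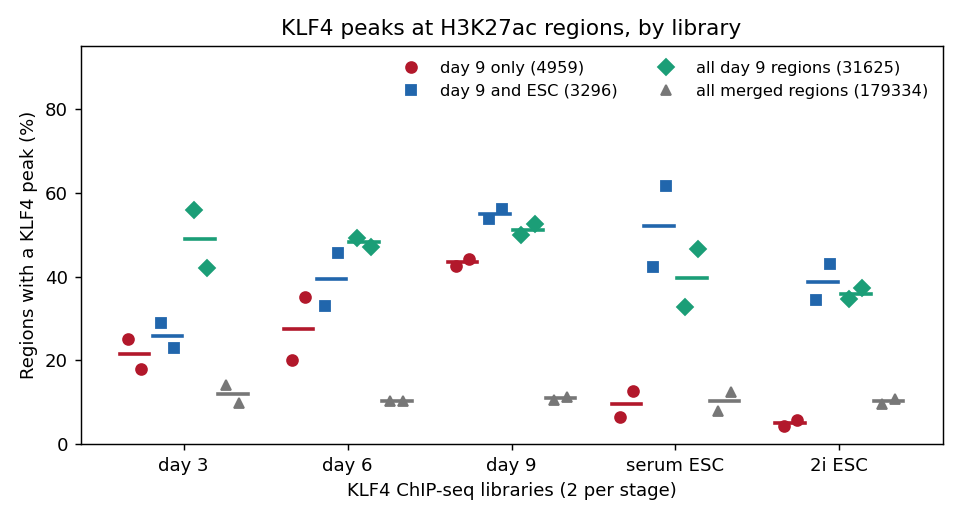
Share of H3K27ac regions with a KLF4 peak (%) in each of the 10 KLF4 libraries, for day 9-only regions (circles), ESC-shared regions (squares), all day 9 regions (diamonds) and all merged regions (triangles), with lines at the mean of 2 libraries. The day 9-only regions are highest at day 9 (42.5% and 44.2%) and lowest in 2i ESC (4.36% and 5.67%), whereas all day 9 regions have 32.7% or more in all 10 libraries and ESC-shared regions 34.3% or more in the 4 ESC libraries.

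Over days 3, 6 and 9 the slope of the share was 3.63 points a day (exact two-sided permutation of 6 libraries, 90 labelings, p = 0.0444, adjusted p = 0.0667), which also missed the threshold after adjustment. Permuted inside batches, it was 3.81 with an exact permutation p of 0.167. Day 6 was where the libraries disagreed: the EA-3702 library had 20.0% and lay below its day 3 partner, and the DG-4040 library had 35.1% and lay above its partner by 17.2 points. With any 1 of the 6 libraries left out, the exact permutation p of the slope was above 0.05 (0.0667 to 0.133), and the slope was 3.28 to 4.37. Without a day 6 library 0.0667 is the smallest p possible, so the threshold could not be reached there, and the slope was 3.63. Without either day 9 H3K27ac library it was 2.10 or 2.13. As the rule asks for acetylation at day 9 and none at day 3, the choice of regions and the day cannot be told apart in the slope either.

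The ESC-shared regions had KLF4 peaks in 25.8% ± 4.16 at day 3, 39.3% ± 8.90 at day 6, 54.9% ± 1.69 at day 9, 51.9% ± 13.7 in serum ESC and 38.6% ± 6.16 in 2i (SD, n = 2 each). The share at day 9-only regions minus that at ESC-shared regions was −12.9 to −3.69 points in the 6 libraries of days 3 to 9 and −48.8 to −29.9 points in the 4 ESC libraries, and the ranges do not overlap. The planned test, day 9 against all other stages, gave 11.4 points (exact permutation p = 0.467, adjusted p = 0.467). Within batches this difference was 3.95 points, and without the first or second day 9 H3K27ac library it was 4.54 or 3.99. The means over days 3 to 9 and over both ESC media, a grouping chosen after these values were seen, were −9.18 ± 3.89 (n = 6) and −38.0 ± 7.92 (n = 4), 28.8 points apart and 20.0 points apart within batches. The classes differ by ESC acetylation through the rule itself, so this contrast is a description and is given with no p. With both classes set to windows of 500 bp about the midpoint, so that width no longer differed, the contrast was 20.9 points.

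Counted per region, KLF4 had a peak in both day 9 libraries at 1796 of the 4959 (36.2%), against 9.18% of all merged regions, 44.8% of all day 9 regions and 48.1% of ESC-shared regions. The same counts were 679 (13.7%, background 8.43%) for both day 3 libraries, 875 (17.6%, background 7.41%) for day 6, 272 (5.48%, background 7.26%) for serum ESC and 116 (2.34%, background 7.02%) for 2i. At least 1 of the 10 libraries had KLF4 at 3056 (61.6%, background 26.0%, all day 9 regions 80.6%), which leaves 1903 (38.4%) without a KLF4 peak in any. All 10 had one at 38 regions (0.766%, background 2.44%). The median width of all merged regions is 542 bp, and wider regions meet more peaks; the part of width in these shares was not tested for the single counts.

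Among the 1796 regions bound in both day 9 libraries, 1219 (67.9%) had no KLF4 peak in any of the 4 ESC libraries and 230 (12.8%) had one in both serum ESC libraries. Of the 1586 ESC-shared regions bound in both day 9 libraries, 11.1% and 61.0% fell into these patterns, as did 23.0% and 53.2% of the 14167 day 9 regions and 24.3% and 51.0% of the 16465 merged regions so bound. Of the 1796, 751 (41.8%) also had KLF4 in both day 6 libraries, against 54.2% of the 1586 ESC-shared and 69.7% of the 14167 day 9 regions bound in both day 9 libraries, and 411 (22.9%) in both libraries of days 3 and 6, against 25.7% and 55.4%. No KLF4 peak at day 3 or day 6 was present at 397 (22.1%, against 14.9% and 6.47%), and none at any other stage at 345 (19.2%, against 3.85% and 3.93%). Regions bound in both day 3 libraries and in neither of day 9 numbered 82, or 1.65% of the 4959, against 2.00% of all merged regions. Of each KLF4 list, 8.61% and 8.29% of the day 9 peaks lay in a day 9-only region, 7.16% to 4.27% at day 6, 3.52% and 3.02% at day 3, 1.53% and 1.88% in serum ESC, and 0.884% and 0.877% in 2i.

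KLF4 binding moved with the strength of acetylation. In the same 10 groups by day 9 rank, 81.0% of the top group had KLF4 in both day 9 libraries, 58.3% of the next, and 15.6% of the lowest. For both day 3 libraries the shares were 21.8% and 6.46%. Regions of the top group were also wider, with a median of 1959 bp against 559 bp in the lowest, and the part of width was not tested. The share near a gene end was 12.7% in both the top and the lowest group.

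**Figure D2:**
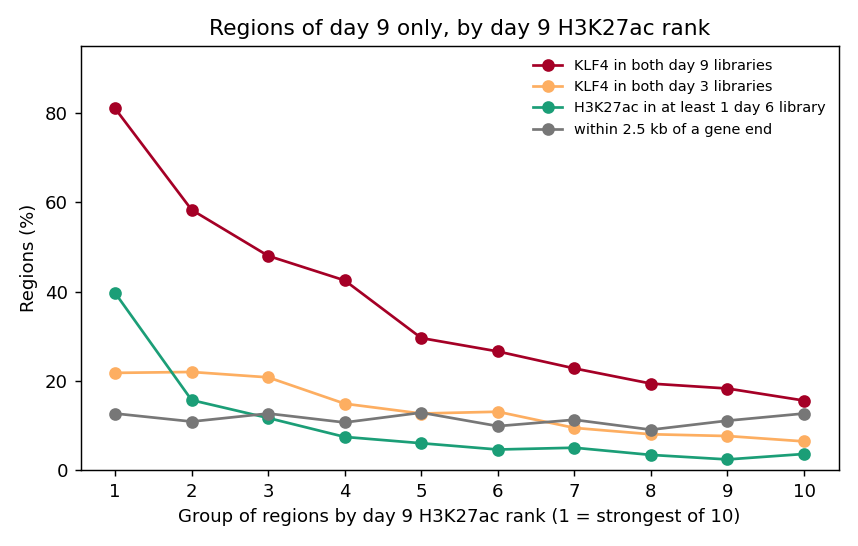
Day 9-only regions in 10 equal groups by their mean rank of the deposited score over both day 9 H3K27ac libraries (1 is strongest), against the share (%) with KLF4 in both day 9 or both day 3 libraries, with H3K27ac in at least 1 day 6 library, or near a gene end. The day 9 KLF4 share goes from 81.0% to 15.6% and the day 6 share from 39.7% to 3.64%, and the gene-end share has no such order.

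The position of KLF4 differed with the width of the region. In regions of 1500 bp or more (832), 72.6% and 74.8% had a day 9 KLF4 peak midpoint within 1 kb of their centre in the first and second library, at a median distance of 146 and 152 bp. In regions under 700 bp (2088) the shares were 41.3% and 42.8%, but the median distance was 362 and 366 bp, and in 81.9% and 80.8% of the 862 and 894 regions with such a midpoint it lay outside the acetylated interval. Regions of 700 to 999 bp also had the midpoint off the centre, with a median of 426 and 419 bp, and only 12.5% and 12.7% within 200 bp. Fewer of their midpoints, 53.4% and 52.4%, lay outside the interval. From 1000 to 1499 bp the median was 172 and 148 bp. Where the KLF4 midpoint of a narrow region lay outside, 67.0% in either library had another merged H3K27ac region within 1 kb on the KLF4 side, and 11.3% and 10.5% on the other side. Another day 9-only region was there in 29.9% and 27.6% on the KLF4 side and in 0.992% and 0.970% on the other. Counted on either side, 60.9% of all day 9-only regions under 700 bp had another merged region within 1 kb and 19.3% another day 9-only region. Narrow ESC-shared regions had a like offset: under 700 bp the medians were 391 and 374 bp, with 82.9% and 76.7% of the midpoints outside. From 1000 to 1499 bp their medians were 555 and 548 bp, and at 1500 bp or more 279 and 269 bp.

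**Figure D3:**
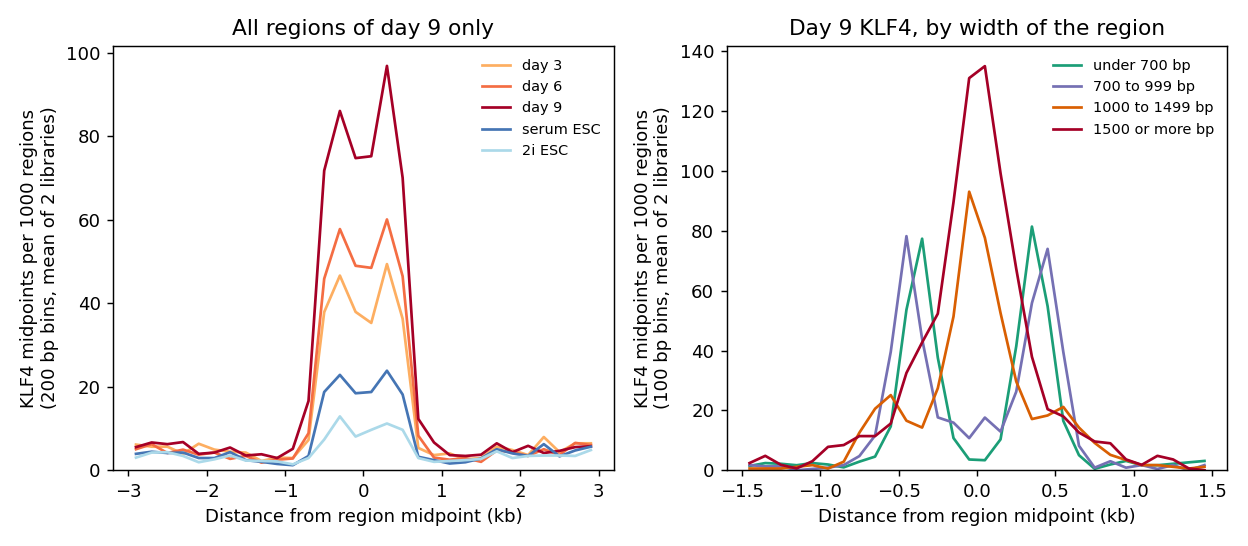
KLF4 peak midpoints per 1000 regions against distance from the region midpoint (kb), as the mean of 2 libraries, for each stage (left, 200 bp bins) and for day 9 in 4 classes of region width (right, 100 bp bins). Regions under 1000 bp show a summit to each side of the centre, with median distances of 362 to 426 bp, regions of 1000 to 1499 bp a central summit with a lower shoulder or summit to each side, and regions of 1500 bp or more 1 central summit.

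The 10 strongest regions all had KLF4 in both day 9 libraries. That at Pxylp1 had KLF4 folds of 6.43 and 6.30 at day 9 and 4.72 and 2.40 in 1 library each of day 6 and day 3. The second strongest lay 16489 bp from Slfn3, of the schlafen family of growth regulators. The third and the sixth lay 8981 bp from Sprr2a2 and 8807 bp from Sprr2a3 in the epidermal differentiation cluster of chromosome 3 (chr3:92239223-92241665 and chr3:92274167-92276496), with H3K27ac folds of 15.1 and 16.5, and 11.5 and 12.7. Their KLF4 folds at day 9 were 10.3 and 11.4, and 6.83 and 6.16, both had KLF4 in both day 6 libraries and in neither of day 3, and the Sprr2a genes are near-identical copies, so reads could be split between them. Next came Lair1, a leukocyte inhibitory receptor, with a region over its start (chr7:4060049-4063292), a region 291395 bp from Pdzrn3, and one in Abcc4, a transporter of cyclic nucleotides.

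The highest day 9 KLF4 folds of these 10 were at Pnpla6, a lysophospholipase (chr8:3527140-3529117), with 24.8 and 25.0, against 5.92 and 4.79 at day 3, 5.70 and 7.38 at day 6, and 2.52 in 1 serum ESC library. Its H3K27ac folds were 18.8 and 17.8. At Pdzrn3 KLF4 folds were 17.5 and 20.0 at day 9 and 10.3 and 10.2 at day 6, and at Abcc4 16.1 and 16.7 at day 9 and 9.90 and 9.03 at day 6. In serum ESC 8 of the 10 had a KLF4 peak in library EA-2643, with folds of 2.01 to 3.05, and 3 in library EA-2697, with folds of 2.42 to 6.55. None of the 10 had one in the 2i library of batch DG-3012, and 1, near Sprr2a3, had one in the 2i library of EA-3702. Day 9 was not always highest: at Galnt7 (chr8:57578863-57580983) all 10 libraries had KLF4, with folds of 21.0 and 12.2 at day 3, 10.3 and 10.3 at day 9 and 13.3 and 6.52 in 2i.

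Among 16 gene lists, simple epithelium had the highest share of genes with a day 9-only region. Of 21631 protein-coding genes, 2199 (10.2%) had a day 9-only region in the gene or within 2.5 kb. Of 30 genes of simple epithelium 14 (46.7%) did, with 24 regions, and 17 (56.7%) had an ESC-shared region, against 7.39% of all genes. Of 25 genes of stratified epithelium and epidermis 7 (28.0%) did, with 9 regions, and 1 had an ESC-shared region. The lists were written with earlier results of these data known, and all 30 simple epithelium genes had some day 9 region, against 63.6% of all protein-coding genes, so they are described without a test. The median gene length was 18.7 kb in the simple epithelium list and 17.3 kb over all genes.

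**Figure D4:**
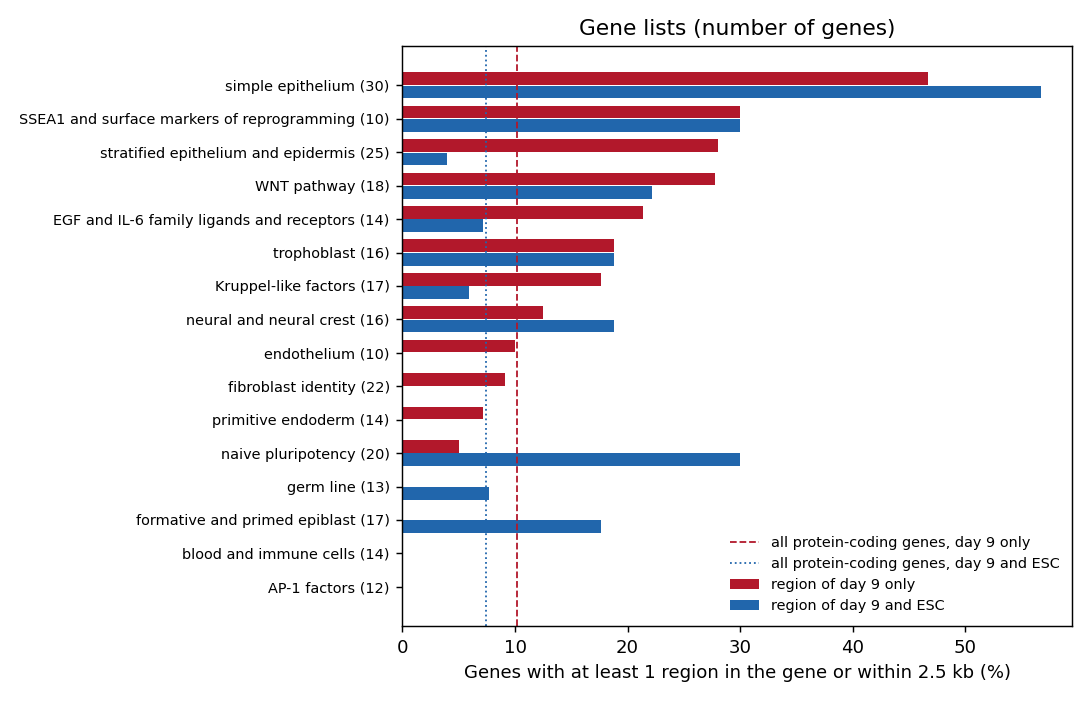
Share of the genes of each list (%) with at least 1 day 9-only region (red) or ESC-shared region (blue) in the gene or within 2.5 kb, with dashed and dotted lines at the shares over all protein-coding genes; the number of genes is in brackets. The shares for day 9-only and ESC-shared regions are 46.7% and 56.7% in simple epithelium, 28.0% and 4.00% in stratified epithelium, 5.00% and 30.0% in naive pluripotency, and 10.2% and 7.39% over all genes.

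Among the transcription factors of epithelia, Grhl2 had 3 day 9-only regions, Grhl3 2, Ehf 4 and Ovol1 1. The strongest at Grhl2, a regulator of junction genes (chr15:37236929-37240153), had H3K27ac folds of 6.47 and 8.33 and KLF4 in both libraries of days 3, 6 and 9 and of serum ESC, with the highest fold, 11.1, at day 3. Of the 4 regions of Ehf, an ETS factor of epithelia, 1 had KLF4 at day 9 (4.40 and 5.45). At Ovol1, a repressor of mesenchymal genes, KLF4 was present at day 9 alone (2.64 and 2.86).

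Genes of tight junctions and polarity with a day 9-only region included Cldn3, Cldn7, Ocln, Cgn and Patj. The region 418 bp from Cldn3, a claudin (chr5:134984966-134985795), had KLF4 in all 10 libraries, with folds of 10.2 and 9.30 at day 9 and 7.46 and 8.82 in 2i, although its H3K27ac folds were only 3.51 and 3.99. That within 2.5 kb of Cldn7, which overlaps Elp5 (chr11:69970131-69970915), had KLF4 in both libraries of day 6 (5.34 and 5.42) and day 9 (6.55 and 7.21) and in no other. Patj, a scaffold of the Crumbs polarity complex, had 3 regions, of which 2 had KLF4 in both day 9 libraries and none in ESC. The region at Cgn, a cytoplasmic junction protein, had no KLF4 peak. Esrp1, which splices epithelial isoforms, and the protease gene Prss8 had 1 region each.

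In the epidermal list, Pkp1, a desmosomal plaque protein, had 2 regions, both with KLF4 in both day 9 libraries (4.75 and 5.80, and 6.64 and 9.78) and none in ESC. The keratin genes of basal and hyperproliferative epidermis followed: a region 2213 bp from Krt5 (KLF4 2.67 and 5.05 at day 9), 2 regions at Krt6a, of which 1 had KLF4 at day 9 alone (6.94 and 5.12), and 1 at Krt14 without KLF4. Keratin genes have close paralogs and reads could be shared among them. None of the 9 epidermal regions had an H3K27ac peak at day 6, nor had 4464 of all 4959 day 9-only regions.

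The share in other lists ran from 0% to 30.0%, beside 10.2% of all protein-coding genes. Of 20 naive pluripotency genes 1 (5.00%), Klf5, had a day 9-only region, 17 had some day 9 region and 6 an ESC-shared one. Formative epiblast (17 genes), AP-1 (12), germ line (13) and blood (14) had none. These counts are small and were not tested against the share over all genes. Trophoblast had 3 of 16 (Elf5, Fgfr2, Tfap2a), the WNT pathway 5 of 18, or 27.8% (Wnt4, Wnt5a, Lrp5, Tcf7l1, Tcf7l2), SSEA1 and surface markers 3 of 10, or 30.0% (Cd44, Alpl, Fut2), and EGF and IL-6 family genes 3 of 14 (Egf, Tgfa, Lifr). Lrp5, a WNT coreceptor, had the strongest of these regions (chr19:3608181-3610948, fold 9.43 and 11.4), with KLF4 in 1 library each of day 6 (3.15) and day 9 (4.56). Wnt5a, a ligand, had KLF4 folds of 7.69 and 7.04 at day 9 and of 2.90 and 2.66 at day 3. Krüppel-like factors had 3 of 17 (Klf5, Klf10, Klf12), fibroblast identity 2 of 22 (Runx1, Runx2), neural 2 of 16 (Neurog2, Pax7), primitive endoderm 1 of 14 (Col4a1) and endothelium 1 of 10 (Erg). The larger of the 2 regions of Runx2 had KLF4 folds of 11.5 and 11.8 at day 9 and 6.62 in 1 day 6 library. Lists with a median gene length far above 17.3 kb, such as the WNT pathway (39.8 kb), have more room for a region. Those of naive pluripotency (8.85 kb), formative epiblast (6.00 kb) and AP-1 (9.39 kb) have less. The other lists without a region had medians of 37.4 kb (germ line) and 16.4 kb (blood). The part of length was not tested.

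The genes with the most day 9-only regions were long ones. Ptprn2 (792 kb) had 12, of which 5 had KLF4 in both day 9 libraries, Prkce (490 kb) 11, Nav2 (651 kb) 11 and Lypd6b (162 kb) 10. Magi2, a junction scaffold, and the phosphatase gene Ptprg had 8 each, and Cdh13 and Mast4 7 each. Cpm, a membrane carboxypeptidase of only 57.9 kb, had 7 day 9-only regions among its 10 day 9 regions, and 4 of them had KLF4 in both day 9 libraries. At Prkce, Nav2, Lypd6b and Mast4 no region was ESC-shared.

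The groups with the most regions lay on chromosome 6, in or nearest to the genes Gm40363, Gm40364, Gm40365, Gm40367 and Gm36327. These groups held 9 regions (chr6:47738194-47766305) and 7 regions (chr6:47657522-47684030), all 16 with KLF4 in both day 9 libraries. Of the 15 steps from one region to the next 11 measured 4 to 5 kb (median 4.28 kb). The gene table places Rn4.5s, the small 4.5S RNA gene that is repeated in tandem in the mouse, at chr6:47654921-47655094. Reads from tandem copies cannot be told apart, so these 16 may not be separate events. They were singled out after their values were seen. Without the day 9-only regions of that stretch, 18 in all, the day 9 difference in KLF4 was 27.3 points.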

How the data were processed

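ChIP-seq for H3K27ac (12 libraries) and KLF4 (10) was used; 13 input libraries were not analysed here. The authors deposited 1 peak list per library, of 10 columns without a header, with values for each peak: its score, its enrichment as a ratio (fold), and the −log10 of its p-value and q-value. The score is −log10 p times 10, rounded down, in all but 3 peaks, of 2 ESC H3K27ac lists. The submitters' processing notes name cutadapt 1.8.1, Bowtie2 2.2.5, MACS2 2.1.1, deepTools 2.3.6 and the build mm10; settings and the control used are not given in the sources used here. Fold, score and p are the authors' own values for a peak and rank or describe peaks within a list.

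Peaks of chromosomes 1 to 19 and X were merged at 1 bp of overlap, and a library was present in a region when a peak of it overlapped by 1 bp (Python 3.11.15, numpy 2.4.6, pandas 2.3.3). Gene positions, promoters and miRNAs came from RefSeq tables of GRCm38.p6. The rule for named items took the 10 regions with the best mean score rank at day 9, the 10 best with KLF4 in both day 9 libraries (the same 10), the 5 best with all 3 day 6 libraries, the 10 genes with most regions, and every list gene with a region (some are not reported here), named by the overlapped or else nearest protein-coding gene. KLF4 was tested with 1 value per library by two-sided exact permutation tests, Benjamini-Hochberg adjusted over 3 tests; a contrast added after the data were seen is given as a description. The batch code in the labels, whose meaning they do not state, was the block of an alternative. The regions, lists and tests were chosen with earlier results of these data known. Replicate lists shared at most 15 identical intervals. The code of the rule was checked on lists simulated for 20000 regions with known members. It recovered 90.0% of the members, and 0.392% were called wrongly. Every simulated library had the same chance of a peak, with no background peaks and no planned differences in list length. The recovered share follows from that chance, so these values check the code and do not measure the accuracy of the rule on the real lists. Alternatives were peak subsets, overlap rules, gene-end distances, the batch block, region width, neighbouring peaks and leaving out each library.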

Additional observations from a re-analysis of the deposited data

Results flagged for a closer look

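The change in KLF4 from day 3 to day 6 at the day 9-only regions ran in opposite directions in the 2 batches that hold both days. In batch EA-3702 the share of regions with a KLF4 peak was 25.1% at day 3 and 20.0% at day 6, a change of −5.06 points. In batch DG-4040 it was 18.0% and 35.1%, a change of 17.2 points. With 1 library per batch and day the difference between batches was not tested. Over all merged regions the changes were −4.05 and 0.475 points, and at ESC-shared regions 4.19 and 22.7 points, so EA-3702 was the lower of the batches in each class.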

How the results depend on the processing

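Limits: the depth and enrichment behind each list are unknown, and the rule needs peaks to be absent from 7 libraries of unequal length. The number of regions was 2444 with the top 50% of each H3K27ac list, 2633 with equal numbers of peaks and 4793 with q of at most 0.01. Of these, 49.8%, 24.0% and 74.0% in the same order overlapped the original ones. With 1 library left out it ran from 4959 to 9287, the highest without the first day 9 library and 9210 without the second. The mean day 6 share was 23.7% with equal numbers of peaks and 2.29% to 5.43% with 1 library left out. The share near a gene end was 14.0% with the top 50%, 21.8% with equal numbers, 6.37% within 1 kb and 31.7% within 10 kb (11.2% to 11.8% with 1 library left out; 95% Wilson interval of the reported 11.4%, 10.5% to 12.3%).

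Of the alternatives for KLF4 those with the replicate block (labels permuted within batches) gave 26.8 points for day 9 against other stages, 3.81 points per day, 3.95 points for the planned contrast with ESC-shared regions and 20.0 for that of days 3 to 9 with both ESC media. The day 9 difference kept its sign in all 37 alternatives and an unadjusted exact permutation p of at most 0.05 in 34. It ran from 17.0 to 30.1 with 1 library left out, the lowest values without a day 9 H3K27ac library, and lacked that p only under the block and without either day 9 KLF4 library (exact permutation p = 0.111, the smallest possible with 1 day 9 library). It was 22.5 in windows of 500 bp, 16.4 with the top 50% of each KLF4 list and 17.5 with the KLF4 midpoint inside the region. As a share of each KLF4 list it was 5.56 points of KLF4 peaks. In 12 of 37 alternatives the exact permutation p of the slope was above 0.05, though the slope itself was not always below the reported 3.63. It was 3.14 with KLF4 q of at most 0.01, 2.16 with the top 50% of KLF4 peaks and 3.81 under the block. Without 1 of the 6 KLF4 libraries of days 3 to 9 it was 3.28 to 4.37, and 3.63 without either day 6 library. The p was also lost without the EA-3702 day 3 H3K27ac library or either day 9 H3K27ac library. Over all left-out libraries the slope ran from 2.10 to 4.37. The planned contrast with ESC-shared regions had an exact permutation p of 0.200 to 0.800 in its 37 alternatives. It was 3.99 to 14.2 points with 1 library left out, with 3.99 and 4.54 without a day 9 H3K27ac library. With the top 50% of H3K27ac lists it was 20.3, and with equal numbers of H3K27ac peaks 22.3. By contrast it was 4.83 with KLF4 q of at most 0.01, 4.70 with the top 50% of KLF4 lists and 5.70 with the KLF4 midpoint inside the region. The contrast of days 3 to 9 with both ESC media, given with no p, was 21.6 to 31.5 points with 1 library left out. Windows of 500 bp, shares over KLF4 lists, the chromosome 6 groups and neighbouring peaks were chosen after the data were seen.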
